A study of Mus musculus with 22 samples.

Results

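The question addressed here was whether the biguanide phenformin was followed by different, or opposite, expression in lung metastases of 2 related mouse mammary tumour lines. The contrast was the phenformin minus PBS difference in metastases of cells overexpressing PGC-1alpha, minus the same difference in metastases of control cells, called the interaction below. It used all 22 arrays of the series, and 1 probe set per gene symbol, the one with the highest mean, which gave 19505 genes. Of these, 15545 lay above the 25th percentile of the array in at least 5 arrays and were tested. The parent line NMuMG comes from normal mouse mammary epithelium, and both derivatives carry the receptor tyrosine kinase ErbB2. Mice received NMuMG-ErbB2/PGC-1alpha or NMuMG-ErbB2/VC cells through the tail vein, and phenformin for 1 week or PBS. Metastatic tissue was cut from frozen lung sections by laser capture microdissection. The groups were PGC-1alpha with phenformin (6 arrays), PGC-1alpha with PBS (6 arrays), VC with phenformin (5 arrays) and VC with PBS (5 arrays). Each group therefore rests on 1 cultured line grown in host mice, and whether a line is 1 clone is not given. The phenformin dose, the mouse strain and age, the number of animals and whether arrays share an animal are not given in the sources used here. The p-values below therefore measure the spread between these arrays, which may in part be technical.

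As background, phenformin inhibits complex I of the mitochondrial respiratory chain, which lowers ATP production and activates AMPK, the kinase that senses low cellular energy. PGC-1alpha is a transcriptional coactivator that, with nuclear receptors and NRF factors, raises expression of respiratory chain subunits and of mitochondrial DNA maintenance factors such as Tfam. Cells with impaired respiration can induce ATF4, the transcription factor of the integrated stress response, whose targets include the serine synthesis enzymes Phgdh, Psat1 and Psph.

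All values are log2 signals, and a difference of 1 is a doubling on the linear scale of the probe signal. No gene had an interaction with an adjusted p below 0.05 in limma with Benjamini-Hochberg adjustment (0 of 15545, 0%), and the lowest adjusted p was 0.173. Leaving out PGC-1alpha with phenformin array 3 gave 2 such genes, and leaving out VC with PBS array 2 gave 1. Unadjusted p was below 0.05 for 1724 genes (11.1%), of which 922 were above 0 (5.93%) and 802 below 0 (5.16%). The count was 1399 after a further quantile normalization and 1445 after cyclic loess. It was 1317 without PGC-1alpha with PBS array 4 and 2116 without array 2 of that group. The phenformin comparison within PGC-1alpha metastases also passed for 0 genes (0%), with 674 at an unadjusted p below 0.05 (4.34%) and a lowest adjusted p of 0.586. Within VC metastases 0 genes passed (0%), 1498 had an unadjusted p below 0.05 (9.64%), and the lowest adjusted p was 0.188. What follows is therefore a description of values, and no gene or gene group below is called changed.

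The 2 phenformin differences had opposite signs for 9167 of the 15545 genes (59.0%). Across genes they correlated negatively (Pearson r = -0.216, Spearman rho = -0.248). The r was -0.139 without PGC-1alpha with PBS array 6 and -0.144 without array 4 of that group. It was -0.162 after a further quantile normalization and -0.172 after cyclic loess. The lines share no array in this correlation, but genes are not independent replicates, and every gene comes from the same 22 arrays. An unadjusted p below 0.05 in both lines, with opposite signs, was met by 90 genes (0.579%). Of these, 50 had a positive difference in PGC-1alpha and a negative one in VC (0.322%), and 40 the reverse (0.257%). Leaving out 1 array moved the 90 to 48 (PGC-1alpha with PBS array 4), 51 (array 6 of that group) or 160 (array 2). The same threshold with the same sign was met by 12 genes (0.0772%). The plot of each gene's difference in the 2 lines shows the opposite-sign genes in the upper left and lower right corners. A single gene, Rnf150, had phenformin and PBS arrays that did not overlap in either line with opposite directions (0.00643%), and 0 genes had this with the same direction. Within 1 line, arrays of the 2 treatments did not overlap for 34 genes in PGC-1alpha (0.219%) and 199 in VC (1.28%).

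**Figure D1:**
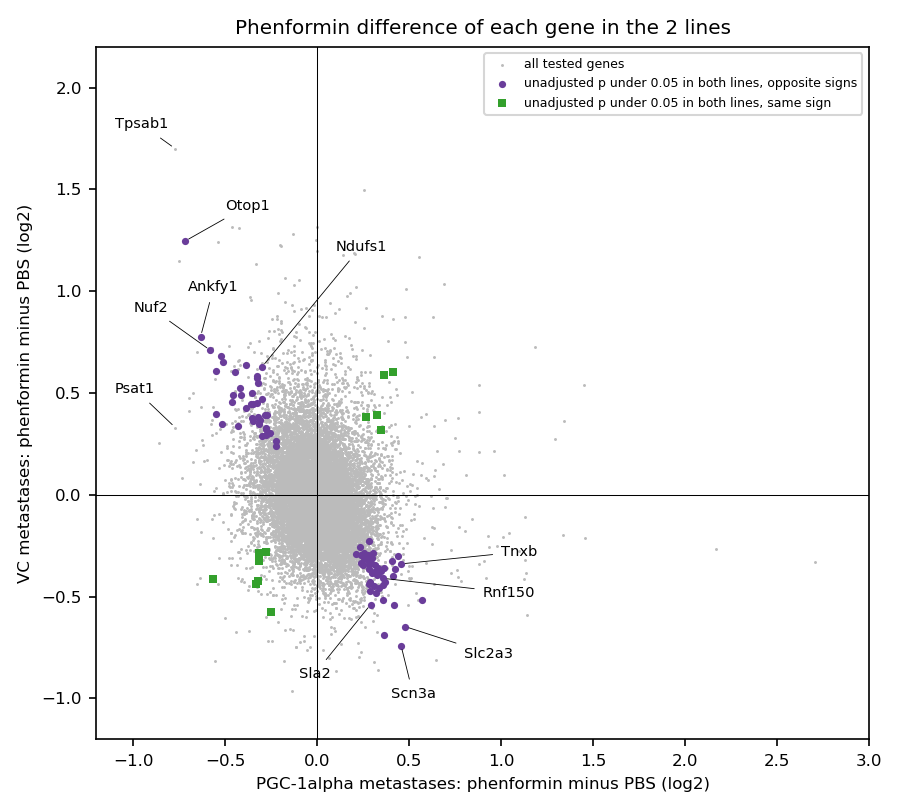
Phenformin minus PBS difference (log2) of each of the 15545 tested genes in PGC-1alpha metastases (horizontal) and VC metastases (vertical). The 90 genes with an unadjusted p below 0.05 in both lines and opposite signs are purple circles, and the 12 with the same sign are green squares.

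The interaction varied with the signal level of the genes. With the tested genes cut into 5 groups of 3109 by mean signal, the dimmest group's median interaction was 0.15, from a median difference of 0.06 in PGC-1alpha and -0.08 in VC metastases. In the group next to the brightest the median interaction was -0.11, from -0.06 in PGC-1alpha and 0.05 in VC. Genes with an unadjusted p below 0.05 and an interaction above 0 made up 10.3% of the dimmest and 0.515% of the brightest group. For interactions below 0 the shares were 2.09% in the dimmest group, 9.01% in the group next to the brightest and 4.05% in the brightest. From the dimmest group up, the 2 phenformin differences had r = -0.151, -0.241, -0.215, -0.164 and 0.0096. Signs were opposite for 60.8%, 62.7%, 59.8%, 58.6% and 53.0% of genes, in the same order. The plot of median differences by signal level shows both lines crossing near the middle group. The contrast between bright and dim genes also differed by array: the deviation of the bright minus that of the dim genes ran from -0.22 to -0.02 (median -0.13) in PGC-1alpha metastases with phenformin and from 0.10 to 0.23 (median 0.16) in VC metastases with phenformin. Those 2 groups did not overlap, whereas the PBS groups of PGC-1alpha (-0.14 to 0.17) and VC (-0.10 to 0.18) did. The part of this signal-level pattern in the interactions of single genes was not tested.

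**Figure D2:**
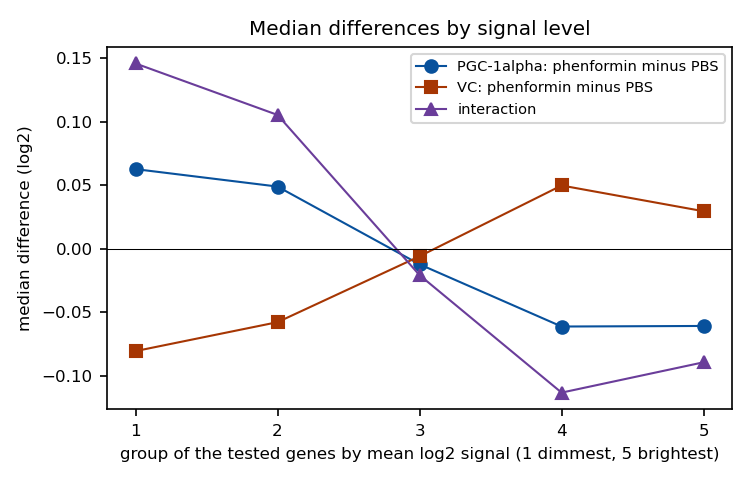
Median phenformin minus PBS difference (log2) in each line, and median interaction, in 5 groups of the tested genes by mean log2 signal, 3109 genes each. The median interaction is 0.15 in the dimmest group and -0.11 in the group next to the brightest.

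The 10 genes with the lowest p on each side of 0 were taken as the named genes, and all 20 had opposite signs in the 2 lines. Selection by the interaction favours opposite signs: of the 1724 genes with an unadjusted p below 0.05, 1672 had them (97.0%). At the limit of the choice, the unadjusted limma p was 0.000353 for Fam107a, the last gene kept above 0, and 0.000377 for Susd3, the next. Below 0 it was 0.000204 for Thumpd3, the last kept, and 0.000240 for Uspl1. The promoters of 4 are shown first, chosen after the values were seen: Tnxb and Gfra1 because their windows hold a motif of 7 or more bases, and Psat1 and Gpank1 because their arrays with phenformin and PBS did not overlap in 1 line. Of the 20 genes, 17 had a promoter in the RefSeq table, of 300 bases from 250 before to 50 after the start, on build GRCm38.p6. The motifs, on both strands, were the E box CACGTG, the AP-1 site TGANTCA, the interferon element (GAAA, any 2 bases, GAAA), the cyclic AMP response element TGACGTCA and the glucocorticoid receptor motif AGAACA. Capitals mark the motifs found, and Psat1 is shown at 1 of its starts.
Tnxb (chr17:34670285-34670584, plus strand): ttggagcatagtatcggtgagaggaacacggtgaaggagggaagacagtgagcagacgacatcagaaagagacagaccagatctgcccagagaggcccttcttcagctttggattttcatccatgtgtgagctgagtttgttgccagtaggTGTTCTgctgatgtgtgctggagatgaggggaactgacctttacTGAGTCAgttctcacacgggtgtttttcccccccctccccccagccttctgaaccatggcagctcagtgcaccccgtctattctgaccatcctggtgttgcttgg
Gfra1 (chr19:58455349-58455648, minus strand): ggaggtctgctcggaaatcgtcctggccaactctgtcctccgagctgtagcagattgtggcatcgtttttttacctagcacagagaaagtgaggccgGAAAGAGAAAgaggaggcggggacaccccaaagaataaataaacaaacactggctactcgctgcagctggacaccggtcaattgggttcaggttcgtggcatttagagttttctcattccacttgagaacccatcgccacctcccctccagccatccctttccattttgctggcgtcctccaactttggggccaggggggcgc
Psat1 (chr19:15925010-15925309, minus strand): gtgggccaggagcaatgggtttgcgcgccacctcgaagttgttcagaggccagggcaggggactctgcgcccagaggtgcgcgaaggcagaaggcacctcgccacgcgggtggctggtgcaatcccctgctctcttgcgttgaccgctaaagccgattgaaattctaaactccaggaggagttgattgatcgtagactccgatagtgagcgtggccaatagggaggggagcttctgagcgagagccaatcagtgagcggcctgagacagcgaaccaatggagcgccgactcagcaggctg
Gpank1 (chr17:35122702-35123001, plus strand): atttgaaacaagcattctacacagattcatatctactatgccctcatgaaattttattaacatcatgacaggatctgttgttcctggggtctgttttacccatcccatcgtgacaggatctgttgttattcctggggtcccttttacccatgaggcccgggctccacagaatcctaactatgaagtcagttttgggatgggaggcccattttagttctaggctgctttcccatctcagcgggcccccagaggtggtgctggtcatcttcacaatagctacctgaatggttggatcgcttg
The Tnxb window held an AP-1 site, present in 7.81% of all 32851 promoters, and the glucocorticoid motif, present in 19.0%. The Gfra1 window held the interferon element, present in 3.44% of promoters. The Psat1 and Gpank1 windows held none of the 5 motifs. The glucocorticoid motif also lay in the windows of BC030500, Fam107a and Thumpd3, while the E box (7.15% of promoters) and the cyclic AMP element (1.79%) were in none of the 17 genes' windows. A match is a description of letters in the window.

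Among genes higher with phenformin in PGC-1alpha and lower in VC metastases, 3 encode signalling proteins or their adaptors. Gfra1 is the co-receptor that binds GDNF and presents it to the receptor tyrosine kinase RET. Gfra1 signal in the PGC-1alpha metastases ran from 7.07 to 7.70 (median 7.60) with PBS and from 7.49 to 7.97 (median 7.72) with phenformin. Gfra1 in the VC metastases lay at 7.56, 7.999, 7.77, 7.71 and 7.86 with PBS and at 7.11, 7.30, 7.18, 7.18 and 7.29 with phenformin. The PGC-1alpha groups overlapped, and all 5 VC arrays with phenformin lay below the 5 with PBS. Gfra1 had a phenformin difference of 0.21 in PGC-1alpha and -0.57 in VC metastases, an interaction of 0.78 (SE 0.17, adjusted p = 0.173). Ctf1 encodes cardiotrophin-1, a cytokine of the interleukin-6 family, and Sla2 an adaptor that dampens antigen receptor signalling in lymphocytes. Sla2 signal in the PGC-1alpha metastases ran from 6.31 to 6.63 (median 6.46) with PBS and from 6.55 to 7.08 (median 6.72) with phenformin. Sla2 in the VC metastases lay at 6.84, 6.52, 6.90, 6.64 and 6.53 with PBS and at 6.33, 5.92, 6.15, 5.97 and 6.37 with phenformin. Its PGC-1alpha groups overlapped, while every VC array with phenformin was below every VC array with PBS. Sla2 had a phenformin difference of 0.29 in PGC-1alpha and -0.54 in VC metastases, an interaction of 0.83 (SE 0.17, adjusted p = 0.173). Ctf1 had a phenformin difference of 0.31 in PGC-1alpha and -0.38 in VC metastases, an interaction of 0.69 (SE 0.15, adjusted p = 0.173).

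Rnf150 encodes a RING finger membrane protein. Rnf150 signal in the PGC-1alpha metastases ran from 6.93 to 7.18 (median 7.08) with PBS and from 7.23 to 7.74 (median 7.39) with phenformin. Rnf150 in the VC metastases lay at 7.52, 7.26, 7.27, 7.14 and 7.22 with PBS and at 6.91, 6.96, 6.88, 6.61 and 6.996 with phenformin. All 6 PGC-1alpha arrays with phenformin were above the 6 with PBS, and all 5 VC arrays with phenformin were below the 5 with PBS. Rnf150 had a phenformin difference of 0.36 in PGC-1alpha and -0.41 in VC metastases, an interaction of 0.77 (SE 0.15, adjusted p = 0.173). The group means of Rnf150 (± SD) were 7.08 ± 0.09 and 7.44 ± 0.19 in PGC-1alpha (n = 6 each), and 7.28 ± 0.14 and 6.87 ± 0.15 in VC metastases (n = 5 each), with PBS first. With PBS the VC mean was therefore above the PGC-1alpha mean, and with phenformin it was below.

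Tnxb encodes tenascin-X, a matrix glycoprotein that binds collagen fibrils. Tnxb signal in the PGC-1alpha metastases ran from 7.37 to 7.87 (median 7.61) with PBS and from 7.79 to 8.27 (median 8.11) with phenformin. Tnxb in the VC metastases lay at 7.88, 7.93, 8.02, 8.35 and 8.36 with PBS and at 8.09, 7.74, 7.90, 7.36 and 7.76 with phenformin. Tnxb showed 1 PGC-1alpha array with PBS inside the phenformin range, and the VC groups overlapped. Tnxb had a phenformin difference of 0.46 in PGC-1alpha and -0.34 in VC metastases, an interaction of 0.80 (SE 0.19, adjusted p = 0.203). Fam107a, an actin-associated stress-responsive gene, had the largest positive interaction of these 10, 1.13 (SE 0.27, adjusted p = 0.203), from 0.31 in PGC-1alpha and -0.82 in VC. The remaining positive genes were the homeobox gene Evx1 (0.80), the connexin gene Gjd3 (0.82), the splicing factor gene Srsf12 (0.76) and BC030500 (0.59). Adjusted p was 0.173 to 0.203 for all 10.

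The 10 named genes with an interaction below 0 were lower with phenformin in PGC-1alpha and higher in VC metastases. Psat1 encodes phosphoserine aminotransferase, the middle enzyme of serine synthesis and a target of ATF4. Psat1 signal in the PGC-1alpha metastases ran from 8.33 to 8.95 (median 8.73) with PBS and from 7.52 to 8.30 (median 7.95) with phenformin. Psat1 in the VC metastases lay at 8.22, 8.90, 8.17, 8.72 and 8.30 with PBS and at 8.49, 8.67, 8.81, 9.22 and 8.78 with phenformin. The 6 PGC-1alpha arrays with phenformin all lay below the 6 with PBS, and the VC groups overlapped. Psat1 had a phenformin difference of -0.77 in PGC-1alpha and 0.33 in VC metastases, an interaction of -1.10 (SE 0.23, adjusted p = 0.173). In linear terms the Psat1 signal was 1.71-fold lower with phenformin in PGC-1alpha and 1.26-fold higher in VC. Its difference within PGC-1alpha had an unadjusted p of 3.77e-05 and an adjusted p of 0.586. In the 2 lines the Psat1 arrays with PBS spanned overlapping ranges.

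Ndufs1 encodes the large iron-sulphur subunit of complex I, the enzyme that phenformin inhibits. Ndufs1 signal in the PGC-1alpha metastases ran from 6.26 to 6.91 (median 6.80) with PBS and from 6.14 to 6.51 (median 6.47) with phenformin. Ndufs1 in the VC metastases lay at 6.52, 6.13, 6.10, 6.15 and 6.63 with PBS and at 6.69, 7.07, 7.13, 6.65 and 7.14 with phenformin. Every VC array with phenformin was above every VC array with PBS, and the PGC-1alpha groups overlapped. Ndufs1 had a phenformin difference of -0.30 in PGC-1alpha and 0.63 in VC metastases, an interaction of -0.93 (SE 0.19, adjusted p = 0.173). Its neighbours in the complex did not share this size: over 36 tested complex I subunits the interaction ran from -0.93 (Ndufs1) to 0.29, with a median of -0.06. The Ndufs1 probe set was also dim beside them, with group means of 6.31 to 6.94 against a mean level of 9.92 over the list.

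Otop1 encodes otopetrin 1, a proton channel. Otop1 signal in the PGC-1alpha metastases ran from 6.85 to 8.45 (median 7.72) with PBS and from 6.08 to 7.82 (median 7.07) with phenformin. Otop1 in the VC metastases lay at 6.54, 6.78, 6.64, 6.62 and 6.25 with PBS and at 7.50, 7.64, 7.12, 8.73 and 8.07 with phenformin. The VC arrays with phenformin all lay above those with PBS, whereas the PGC-1alpha groups overlapped widely. Otop1 had a phenformin difference of -0.72 in PGC-1alpha and 1.25 in VC metastases, an interaction of -1.96 (SE 0.42, adjusted p = 0.173). Its interaction was the largest in size of the 20, and its 95% interval ran from -2.83 to -1.10. In VC metastases the Otop1 signal was 2.37-fold higher with phenformin.

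Gpank1, a gene with G-patch and ankyrin domains, had the least spread of the negative genes within VC. Gpank1 signal in the PGC-1alpha metastases ran from 7.66 to 8.22 (median 7.84) with PBS and from 7.35 to 7.88 (median 7.46) with phenformin. Gpank1 in the VC metastases lay at 7.55, 7.71, 7.72, 7.61 and 7.66 with PBS and at 8.19, 8.26, 8.13, 8.27 and 8.14 with phenformin. The VC groups of Gpank1 were separated by a gap wider than either group's range, and the PGC-1alpha groups overlapped. Gpank1 had a phenformin difference of -0.32 in PGC-1alpha and 0.55 in VC metastases, an interaction of -0.87 (SE 0.16, adjusted p = 0.173). Endosomal genes were Ankfy1 (-1.41, SE 0.31, adjusted p = 0.173), whose product acts on early endosomes, and Stard3 (-1.02, SE 0.23, adjusted p = 0.173), a sterol transporter of late endosomes. The remaining negative genes were Nuf2, described with the cell cycle genes, Fam149b (-0.94), Atrnl1 (-0.74), a relative of attractin, and the RNA methyltransferase gene Thumpd3 (-0.90).

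**Figure D3:**
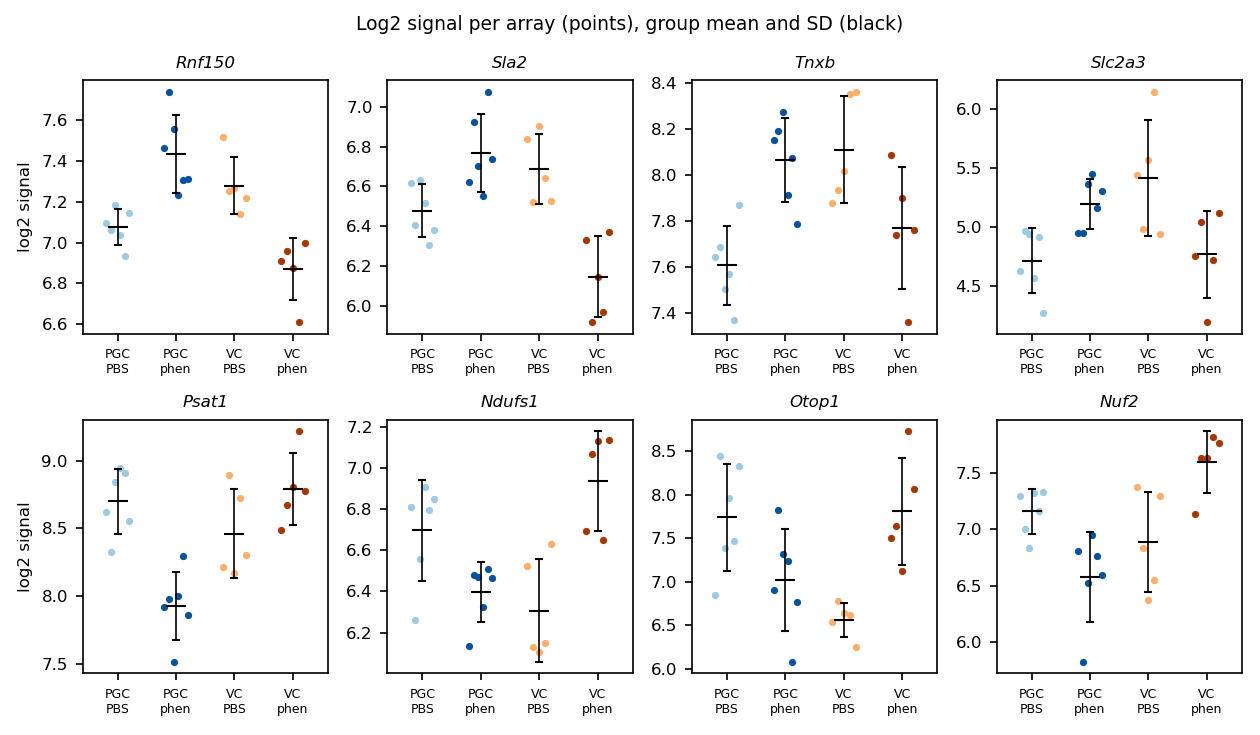
Log2 signal per array for 8 genes, with the group mean and SD in black (n = 6 in each PGC-1alpha group, n = 5 in each VC group). Rnf150, Sla2, Tnxb and Slc2a3 in the top row have higher means with phenformin in PGC-1alpha and lower means in VC metastases, and Psat1, Ndufs1, Otop1 and Nuf2 in the bottom row have the reverse.

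A second set was chosen by the size of the opposite differences, taking in each direction the 8 genes whose smaller absolute difference was largest. The orientation in this set is fixed by the choice. Higher in PGC-1alpha and lower in VC were Pifo (1.14 and -0.59), which acts in ciliary disassembly, the axonemal tektin Tekt4 (0.57 and -0.52) and the axonemal dynein chain Dnaic1 (0.50 and -0.54). Pifo was below the median negative control in 5 of 6 PGC-1alpha arrays with PBS, 3 of 6 with phenformin and 2 of 5 arrays of each VC group, so its differences are partly between background signals. With them came Inmt (0.65 and -0.81), an indolethylamine methyltransferase abundant in lung, and the prostaglandin-degrading enzyme Hpgd (0.55 and -0.52). The others were 1700016K19Rik (0.54 and -0.48), the sodium channel Scn3a (0.46 and -0.74) and Slc2a3 (0.48 and -0.65), the glucose transporter GLUT3. These are differences of means, which single high arrays can shift. In PGC-1alpha with phenformin the highest array was 8.21 for Pifo (median 5.08), 7.67 for Dnaic1 (5.85) and 10.33 for 1700016K19Rik (8.57). In PGC-1alpha with PBS it was 5.67 (median 4.08), 6.42 (5.14) and 9.04 (8.22) for the same genes. Slc2a3 signal in the PGC-1alpha metastases ran from 4.28 to 4.97 (median 4.77) with PBS and from 4.95 to 5.45 (median 5.23) with phenformin. Slc2a3 in the VC metastases lay at 5.44, 4.98, 5.57, 6.15 and 4.94 with PBS and at 4.75, 5.05, 4.20, 4.72 and 5.12 with phenformin. All PGC-1alpha and VC groups of Slc2a3 overlapped, and 4 PGC-1alpha arrays with PBS and 3 VC arrays with phenformin were below the median of the negative controls. Slc2a3 had a phenformin difference of 0.48 in PGC-1alpha and -0.65 in VC metastases, an interaction of 1.13 (SE 0.27, adjusted p = 0.203).

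Lower in PGC-1alpha and higher in VC by this choice were the mast cell proteases Tpsab1, a tryptase, and Mcpt4, a chymase. Tpsab1 signal in the PGC-1alpha metastases ran from 6.78 to 10.73 (median 8.13) with PBS and from 6.50 to 8.04 (median 7.71) with phenformin. Tpsab1 in the VC metastases lay at 5.49, 6.64, 8.20, 7.88 and 5.27 with PBS and at 6.93, 9.80, 9.64, 8.89 and 6.74 with phenformin. The groups of Tpsab1 overlapped in both lines, and the PGC-1alpha arrays with PBS alone ran from 6.78 to 10.73. Tpsab1 had a phenformin difference of -0.77 in PGC-1alpha and 1.70 in VC metastases, an interaction of -2.47 (SE 0.95, adjusted p = 0.37). Mcpt4 had an interaction of -1.90 (SE 0.79, adjusted p = 0.392). Also in this direction were Otop1, Ankfy1, Nuf2, Pate14, Gm9958 (-1.30) and Depdc1b (-1.13). Depdc1b was below the median negative control in 4 of 6 PGC-1alpha arrays with phenformin and 2 of 5 VC arrays with PBS. The lowest absolute differences kept were 0.457 for Scn3a and 0.557 for Depdc1b, and the next genes were Zdhhc23 (0.436) and Fam83d (0.549).

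Pate14, of the Pate family of small secreted cysteine-rich proteins, marks the 2 lines here. Pate14 signal in the PGC-1alpha metastases ran from 9.10 to 9.60 (median 9.25) with PBS and from 8.26 to 8.92 (median 8.68) with phenformin. Pate14 in the VC metastases lay at 3.86, 3.68, 3.99, 4.76 and 3.44 with PBS and at 3.74, 4.37, 4.94, 7.09 and 3.10 with phenformin. With PBS all PGC-1alpha arrays were above 9 and all VC arrays below 5, while VC with phenformin array 4 stood at 7.09, apart from the others of its group. In VC metastases Pate14 was below the median negative control in 4 of 5 arrays with PBS and 3 of 5 with phenformin, so its difference there and the sign of that difference rest on background signal, and no interaction is given for it. Without VC with phenformin array 4 the interaction was -0.61 for Ppargc1a, -1.63 for Mcpt4, -1.64 for Cpa3 and 2.09 for Scgb1a1.

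The probe sets of Ppargc1a and of the receptor gene Erbb2 were examined in every group. Ppargc1a signal in the PGC-1alpha metastases ran from 8.46 to 9.38 (median 8.83) with PBS and from 7.65 to 9.83 (median 8.53) with phenformin. Ppargc1a in the VC metastases lay at 7.70, 7.20, 8.24, 7.87 and 6.69 with PBS and at 7.99, 7.97, 7.58, 8.67 and 8.02 with phenformin. Ppargc1a encodes PGC-1alpha, and whether its probe set also detects the overexpressed transcript is not given in the sources used here. With PBS its PGC-1alpha arrays were all above its VC arrays, and with phenformin the lines overlapped. The highest VC array with phenformin, 8.67, was array 4, which also stood apart for Pate14, and the next highest was 8.02. Among PGC-1alpha arrays with phenformin, array 6 (7.65) lay below 8.02, and the next lowest was 8.12. Ppargc1a had a phenformin difference of -0.27 in PGC-1alpha and 0.50 in VC metastases, an interaction of -0.77 (SE 0.44, adjusted p = 0.51). Ppargc1b, its relative, had an interaction of 0.43 (SE 0.21, adjusted p = 0.459). Erbb2 had -0.01 in PGC-1alpha and -0.13 in VC, an interaction of 0.12 (SE 0.21, adjusted p = 0.869). Its 95% interval was -0.32 to 0.56, and without VC with phenformin array 4 and PGC-1alpha with phenformin array 3 the Erbb2 value was -0.03.

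Gene lists for energy metabolism were described by their counts and medians, beside a median interaction of -0.01 and an 11.1% share of unadjusted p below 0.05 over all 15545 genes. No member of any list passed the adjusted threshold. Members named from here on for a p below 0.05 were chosen after their values were seen, beyond the 2 with the lowest p per list. Of 24 tested genes of mitochondrial biogenesis and PGC-1 partners, 18 were below 0 and the median interaction was -0.20, from -0.09 in PGC-1alpha and 0.08 in VC. Unadjusted p was below 0.05 for 5 of the 24 (20.8%), all below 0. They were Tfam (-0.67), which packages mitochondrial DNA and starts its transcription, the mitochondrial helicase Twnk (-0.51), the transcription factor Mterf3 (-0.46), the chaperonin Hspd1 (-0.49) and the import receptor Tomm70a (-0.53). The 3109 genes of the signal group next to the brightest, at mean signals of 7.69 to 8.80, had a median of -0.11. Of them, 9.01% had an unadjusted p below 0.05 with an interaction below 0, and 2.48% with one above 0. The biogenesis list's mean signal (7.91) lay in that range. So did those of the AMPK (7.84), stress response (8.51), cell cycle (8.12) and macrophage (8.43) lists. After a further quantile normalization the biogenesis list's median was -0.11, and without PGC-1alpha with PBS array 4 it was -0.13.

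The respiratory chain and mitochondrial ribosome lists had medians nearer to that of all genes than the biogenesis list. Over 36 complex I genes the median interaction was -0.06 (24 below 0). Over 25 genes of complexes II to IV it was -0.03 (16 below 0). It was -0.12 over 16 ATP synthase genes (12 below 0) and -0.07 over 39 mitochondrial ribosomal proteins (29 below 0). The brightest signal group, at mean signals of 8.80 to 13.41, had a median of -0.09. Its range held the mean levels of complex I (9.92), complexes II to IV (10.57) and ATP synthase (9.96). The mitochondrial ribosome list (8.47) lay in the group next to the brightest, whose median was -0.11. After a further quantile normalization the sign turned for complex I (0.04) and for complexes II to IV (0.02), and after cyclic loess as well (0.03 and 0.03). Complex I also turned to 0.02 without VC with phenformin array 3. Unadjusted p was below 0.05 for 1 complex I gene (2.78%), for Sdha (-0.74), the catalytic subunit of complex II, and for Mrpl3 (-0.57), Mrpl13 (-0.52) and Mrps22 (-0.56). No ATP synthase gene reached it (0%), and that list's median was -0.04 after a further quantile normalization and -0.04 without VC with phenformin array 3. Sdha was dim beside its list, with group means of 7.09 to 7.64 against a mean level of 10.57 over complexes II to IV. The array has 9 probe sets for the mitochondrial genome, none with a single gene symbol, and these were not among the genes tested.

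Of 26 regulators in the AMPK, LKB1 and mTOR list, 20 were below 0, with a median interaction of -0.19, from -0.09 in PGC-1alpha and 0.07 in VC. Unadjusted p was below 0.05 for 4 (15.4%): Prkab2 (-0.83), a beta subunit of AMPK, Stradb (-0.79), a pseudokinase partner of LKB1, Rptor (-0.63), which recruits substrates to mTORC1, and Fnip1 (-0.55), which binds folliculin and AMPK. All 4 were below 0, and the list's median was -0.12 after cyclic loess. In the integrated stress response list 25 of 31 genes were below 0. The median was -0.10, near the -0.11 of the signal group next to the brightest, or -0.04 after a further quantile normalization. Of the list's members, 6 had a p below 0.05 (19.4%), and they did not point one way. Psat1 (-1.10), Psph (-0.54), the last enzyme of serine synthesis, the amino acid transporter Slc7a5 (-0.62) and the glutathione-degrading enzyme Chac1 (-0.55) were below 0, while the hormone Fgf21 (0.77) and the transcription factor Cebpb (0.45) were above. Fgf21 was dim, at 4.77 to 6.12 across the arrays, near the median negative control of 4.61 to 5.05. The 21 genes of the unfolded protein response had a median of -0.01, or 0.08 after a further quantile normalization, and 0% had a p below 0.05.

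Glycolysis genes (21 tested) had a median interaction of -0.16, from 0.05 in PGC-1alpha and 0.16 in VC. Slc2a3 (1.13) and the hexokinase Hk1 (-1.20) were the 2 with a p below 0.05 (9.52%), and they had opposite signs. Fatty acid oxidation (18 genes) had a median of -0.16 and 1 such gene, Hadhb (-0.48), a subunit of the trifunctional protein. The citrate cycle list had 0.06 over 25 genes, with the pyruvate carboxylase Pcx at 0.58, and its median turned to -0.05 without VC with PBS array 5 and to -0.10 with the filter at the array median. Folate and nucleotide genes (22) had -0.14, cholesterol synthesis (19) -0.11 and fatty acid synthesis (18) -0.12. These medians lay between -0.16 and 0.06, and without PGC-1alpha with PBS array 6 that of glycolysis was -0.09.

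Nuf2 is a subunit of the NDC80 complex, which ties kinetochores to microtubules. Nuf2 signal in the PGC-1alpha metastases ran from 6.83 to 7.33 (median 7.22) with PBS and from 5.83 to 6.95 (median 6.68) with phenformin. Nuf2 in the VC metastases lay at 7.37, 6.83, 6.37, 6.55 and 7.30 with PBS and at 7.13, 7.63, 7.63, 7.82 and 7.77 with phenformin. In both lines the groups overlapped, with 1 VC array with phenformin at 7.13 and the other 4 above every VC array with PBS. Nuf2 had a phenformin difference of -0.58 in PGC-1alpha and 0.71 in VC metastases, an interaction of -1.29 (SE 0.27, adjusted p = 0.173). Of 34 tested cell cycle genes, 27 were below 0, the median interaction was -0.13, and the median difference was -0.20 in PGC-1alpha and -0.05 in VC, so that both medians were below 0. Without VC with PBS array 1 the median interaction was -0.03. Unadjusted p was below 0.05 for 3 (8.82%): the mitotic kinesin Kif20a (-0.86), the anaphase activator Cdc20 (-0.63) and the replication licensing factor Cdt1 (0.58).

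In the glucocorticoid-responsive list 4 of 19 genes had a p below 0.05 (21.1%), all below 0. The list's mean signal (8.33) lay in the signal group next to the brightest. Of that group's genes, 9.01% had an unadjusted p below 0.05 with an interaction below 0, and 2.48% with one above 0. The list's median was 0.005, 10 of its 19 genes were above 0, and the median changed sign in 17 of 36 alternative settings. Fkbp5 encodes a chaperone of the glucocorticoid receptor that the receptor itself induces. Fkbp5 signal in the PGC-1alpha metastases ran from 7.58 to 8.66 (median 7.92) with PBS and from 7.13 to 7.56 (median 7.34) with phenformin. Fkbp5 in the VC metastases lay at 7.87, 7.77, 7.78, 8.30 and 8.09 with PBS and at 8.31, 8.24, 7.74, 8.44 and 7.90 with phenformin. Its PGC-1alpha arrays with PBS were all above those with phenformin, and its VC groups overlapped. Fkbp5 had a phenformin difference of -0.61 in PGC-1alpha and 0.17 in VC metastases, an interaction of -0.78 (SE 0.24, adjusted p = 0.305). The other 3 were Tsc22d3 (-0.90), which encodes the glucocorticoid-induced leucine zipper, the kinase Sgk1 (-0.74) and the ErbB feedback inhibitor Errfi1 (-0.48). Among 13 ErbB receptors and ligands, 4 had a p below 0.05 (30.8%), on both sides of 0: the receptor Erbb3 (0.51) and the ligand Nrg2 (0.58) above, and the ligand Btc (-0.60) and Errfi1 below.

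In the inflammatory list 2 of 29 genes had a p below 0.05 (6.90%), Il18 (-0.86), a cytokine of the interleukin-1 family, and Ptgs2 (-0.68), the inducible cyclooxygenase, and the list's median was -0.05. Interferon response genes had a median of -0.10 and antigen presentation genes 0.04, with 0% at a p below 0.05 in each. In the matrix list (median -0.11) the proteoglycan Lum (-1.41) and the basement membrane linker Nid1 (-0.58) had a p below 0.05 (8.33%). For Lum the highest PGC-1alpha array with PBS was 9.04, against a median of 6.14 in that group. The antioxidant list had a median of -0.01, with the stress transcription factor Nfe2l2 at 0.70 and the mitochondrial peroxiredoxin Prdx3 at -0.62. In the circadian list (median -0.03) the clock activator Arntl (-0.49) and the clock kinase Csnk1d (-0.67) had a p below 0.05 (10.5%). Medians were -0.01 for immediate early genes, -0.004 for epithelial junctions and keratins, -0.11 for the hypoxia response, -0.13 for lysosome and autophagy, -0.07 for the cytosolic ribosome and -0.17 for glutamine, glutamate and proline metabolism. Biguanide transporters had a median of 0.05 over 6 genes, with the efflux carrier Slc47a2 at 0.59. The lysosome median was -0.03 after a further quantile normalization and -0.04 with array weights, and the hypoxia median was -0.03 without PGC-1alpha with PBS array 6. The medians of the inflammatory, interferon, antigen presentation, antioxidant, circadian, immediate early, epithelial and biguanide lists changed sign under at least 1 alternative.

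**Figure D4:**
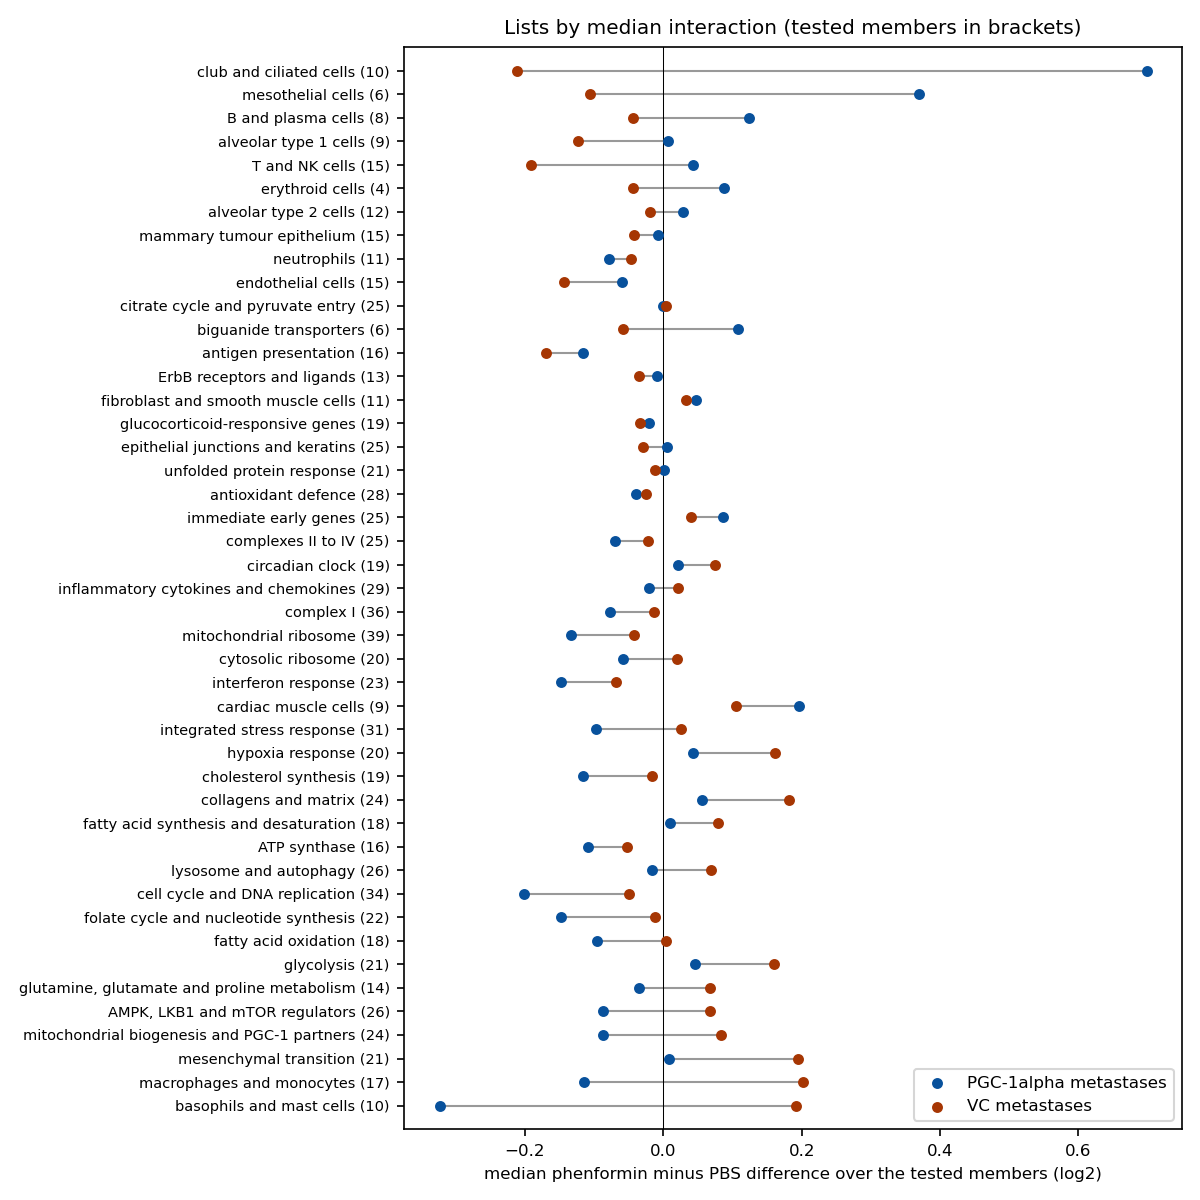
Median phenformin minus PBS difference (log2) over the tested members of each list in PGC-1alpha (blue) and VC metastases (red), joined by a line and ordered by the median interaction of the members. Club and ciliated cell markers lie at the top with 0.70 in PGC-1alpha and -0.21 in VC, and basophil and mast cell markers at the bottom with -0.32 and 0.19.

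The 3 lists with the largest absolute medians were markers of host cells. In such bulk samples a smaller share of a cell type and less of its RNA per cell cannot be told apart. Mast cells store tryptase, chymase and carboxypeptidase in granules. Of 10 basophil and mast cell markers, 9 were below 0, with a median interaction of -0.47 and 3 at a p below 0.05 (30.0%), Tpsab1, Mcpt4 and Cpa3. Their mean log2 signal in PGC-1alpha metastases ran from 6.51 to 7.98 (median 7.001) with PBS and 6.41 to 7.06 (median 6.79) with phenformin. In VC metastases it ran from 6.37 to 7.10 (median 6.54) with PBS and 6.64 to 7.90 (median 7.48) with phenformin. The groups overlapped in both lines. Without the 4 arrays of lowest limma array weight, all VC and chosen after seeing the data, the list's median was -0.28, and Tpsab1 had an interaction of -0.71, Cpa3 -0.54 and Mcpt4 -1.22.

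Club and ciliated cells line the airways, and their markers had the largest median interaction of all lists, 0.90, with 9 of 10 above 0 but none at a p below 0.05 (0%). Their mean signal ran from 5.77 to 7.53 (median 5.86) in PGC-1alpha with PBS and 5.81 to 9.85 (median 6.90) with phenformin. In VC it was 6.02 to 7.48 (median 7.40) with PBS and 5.95 to 7.88 (median 7.33) with phenformin. The highest value, 9.85, belonged to PGC-1alpha with phenformin array 3, and without it the list's median interaction was 0.38. The club cell secretoglobin Scgb1a1 had an interaction of 2.44 (SE 1.25, adjusted p = 0.472). The part of airway RNA in the values of Pifo, Tekt4, Dnaic1 and 1700016K19Rik was not tested.

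Macrophage and monocyte markers were below 0 in 16 of 17, with a median of -0.29, from -0.11 in PGC-1alpha and 0.20 in VC. Itgam (-0.77), an integrin of myeloid cells, the mannose receptor Mrc1 (-0.61) and the complement gene C1qc (-0.49) had a p below 0.05 (17.6%). Their mean marker level overlapped between phenformin and PBS in both lines, at 8.29 to 8.58 and 7.99 to 8.57 in PGC-1alpha with PBS and phenformin, and at 8.20 to 8.54 and 8.45 to 8.80 in VC. Without the same 4 arrays the median was -0.10. The mesenchymal transition list, which stromal cells also express, had -0.27 with 0% at a p below 0.05, or -0.09 with array weights. The other marker lists had medians from -0.10 (cardiac muscle, 0.32 without VC with phenformin array 3) to 0.26 (mesothelium). Markers of the mammary tumour epithelium had 0.10 over 15 genes, 0.04 without PGC-1alpha with PBS array 6, -0.03 without PGC-1alpha with phenformin array 3, and -0.04 without the 4 arrays of lowest weight.

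**Figure D5:**
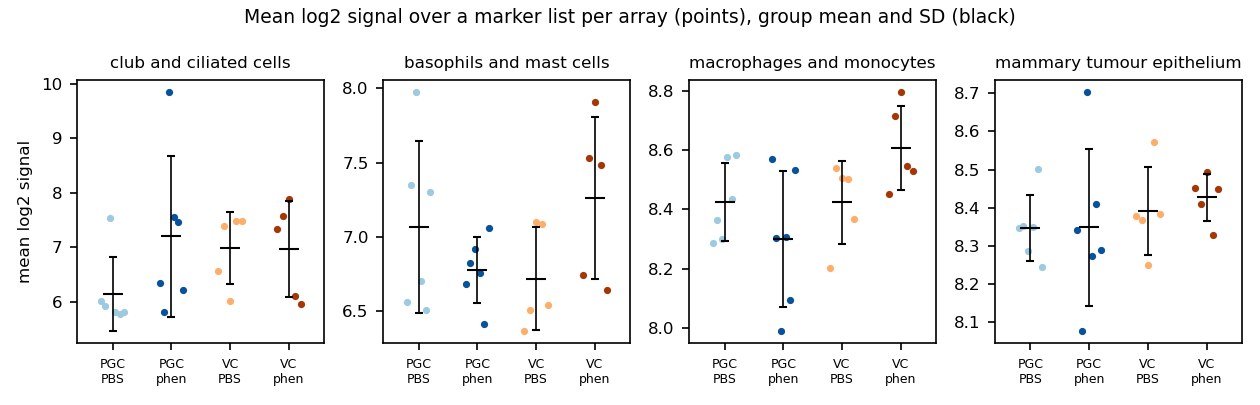
Mean log2 signal over the markers of 4 cell types per array, with the group mean and SD in black (n = 6 in each PGC-1alpha group, n = 5 in each VC group). The groups overlap in all 4 panels, and 1 array of PGC-1alpha with phenformin reaches 9.85 for club and ciliated cells.

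The tissue and the arrays as a whole set the limits of these values. The mean signal of 15 mammary tumour epithelium markers was 8.08 to 8.70 across the 22 arrays, and that of 12 alveolar type 2 markers 10.35 to 11.05, so genes of normal lung gave signal in every array. Array medians were 6.55 to 6.64, the median negative control probe set was 4.61 to 5.05, and the area under the curve that separates positive from negative controls was 0.902 to 0.938. The median SD within groups was 0.25 over the tested genes. The number of arrays per group limits the precision.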

How the data were processed

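Total RNA from laser-captured lung metastases was labelled with a pico kit from 10 ng and hybridised to 1-colour arrays, 1 per sample, per the labels' protocols. The authors deposited log2 expression values per probe set, and the submitters' processing notes name the oligo package (version not stated). The normalization method is not given in the sources used here. The 6609 control probe sets were left out. Of the remaining 22206, 19572 had 1 gene symbol, and 2634 had no or several symbols in the platform annotation and were left out. The probe set with the highest mean stood for each gene, and a gene was kept where 5 or more arrays had it over their 25th percentile.

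With limma 3.58.1 (R 4.3.3), 1 model with 4 group means was fitted to all 22 arrays and moderated by eBayes, and Benjamini-Hochberg adjustment ran over all 15545 genes, with a threshold of 0.05. The fit was tested on simulated data. Named genes were the 10 lowest p in each direction, the 8 largest opposite differences in each orientation, Ppargc1a, Ppargc1b and Erbb2, and the 2 lowest p in each of 31 gene lists and 14 marker lists. Genes that share a near-identical copy may share probes. The members and lists were chosen with earlier results of these data known. Alternatives were other scalings, filters, moderation, array weights, covariates, a replicate block and leaving out arrays. A second deposited table was not used, since its 22 columns carry numbers that match no sample label.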

Additional observations from a re-analysis of the deposited data

Results flagged for a closer look

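A check for 1 array far from the others of its group covered 200 groups of values and found 8. Chance gives about 1 in 20, so the number found was no more than chance would give. The 8 are listed as values to look at. Ctf1 was 8.56 in PGC-1alpha with phenformin array 4, with the nearest array at 8.73. Nuf2 was 7.13 in VC with phenformin array 1, with the nearest at 7.63. In PGC-1alpha with PBS array 3, Pifo was 5.67 (nearest 4.24), 1700016K19Rik was 9.04 (nearest 8.27) and the mean of the club and ciliated cell markers was 7.53 (nearest 6.02). The neutrophil marker mean was 7.79 in PGC-1alpha with PBS array 1 (nearest 7.47). The erythroid marker mean was 6.93 in PGC-1alpha with phenformin array 3 (nearest 7.23). The cardiac muscle marker mean was 8.38 in VC with phenformin array 3 (nearest 6.65).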

How the results depend on the processing

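The count of interactions with an adjusted p below 0.05 stayed at 0 under the 14 settings other than leaving out 1 array, with a lowest adjusted p of 0.114 to 0.310. Leaving out 1 array gave 0 to 2. Without PGC-1alpha with phenformin array 3, Gpank1 (-0.93) and Fam149b (-1.05) passed with an adjusted p of 0.0443, and without VC with PBS array 2, Stard3 (-1.19) passed at 0.0458. Deviations of same-numbered arrays correlated at 0.0059 to 0.31 in PGC-1alpha, over 0.1 in 4 of 6 pairs, each best with its own number, and below 0 in all 5 VC pairs. Since not every pair was over 0.1, the numbers were not taken as pairs, and the PGC-1alpha pattern is a hint from the data. With a replicate block within each line 0 interactions passed, and phenformin in VC gave 2, Fabp4 and Folr2 (lowest adjusted p 0.0162). The 90 genes with opposite signs became 48 without PGC-1alpha with PBS array 4, 51 without array 6 and 160 without array 2 of that group, and 63 to 106 under the 14 other settings, with 106 under the replicate block. Erbb2 was -0.027 without VC with phenformin array 4 and PGC-1alpha with phenformin array 3. Of 1683 gene values under the 14 other settings, 1682 kept their direction and side of the threshold, and of 2684 with 1 array left out 2681 did. Most of these genes were chosen by their values in the same arrays, which favours keeping the direction. None passed in the main fit, so keeping the side of the threshold means not passing again. The mean-variance trend, robust moderation and replicate block leave the differences themselves unchanged. These counts are therefore no test of the single genes. The share of unadjusted calls above 0 was 53.5%, 45.7% with cyclic loess, 62.1% after median centring and 38.9% with the filter at the array median. Of 25 list medians beyond 0.1 from 0, 25 kept their sign after a further quantile normalization and after cyclic loess, though many were nearer to 0. Over all alternatives 22 of 45 list medians changed sign at least once. The causes were not tested.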
